A study of Mus musculus with 15 samples.

Results

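The 8 sites described here are among the most strongly bound of the 1544 genome sites that 2 nuclear receptors, RevErbalpha (encoded by Nr1d1) and RevErbbeta (encoded by Nr1d2), share in mouse macrophages. They were chosen by their mean ChIP-seq signal and by a small GRO-seq difference of the assigned gene between knockout and control macrophages. Their assigned genes are Dnttip2, Hnrnpl, Senp6, Hmga1, Kansl2, Sap25, Pqlc1 and Zfp236, which are 8 of the 1220 gene IDs in the authors' table, and each has 1 shared site. Those 2 measures are given as a description and support nothing. RNA read at the sites themselves was not used in the choice. The Senp6 site lies inside its gene, however, so its GRO-seq values are not independent of the choice.

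GRO-seq, a sequencing of RNA in the act of transcription, was run on bone marrow derived macrophages of RevErbalpha flox/flox; RevErbbeta flox/flox mice that also carried Tie2-Cre (DKO). The same measurement was made in macrophages with the floxed alleles of both genes but no Cre (WT). Capped 5' ends of nascent RNA were read by 5'GRO-seq in the mouse macrophage line RAW, in cells that express biotinylated RevErbalpha (BLRP-RevErba), and in control RAW cells (BTEV-Ctrl). Binding was read by ChIP-seq on streptavidin beads in RAW cells with biotinylated RevErbalpha, RAW cells with biotinylated RevErbbeta and control RAW cells with the biotin ligase BirA. All samples are labelled with a C57Bl6 background, RAW cells included, and the bone marrow cells were kept in 10 ng/mL M-CSF. Tie2-Cre is active in blood and endothelial lineages, so the deletion is not particular to macrophages. Binding was measured in a cell line with added receptor, and the knockout in primary cells where binding was not measured.

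Each group has 1 sample in the labels, so differences between conditions could not be checked against replicates and no test was made. Repeat runs of a sample, 3 for each RevErb and 2 for each genotype at the gene level, are shown one by one, and nothing in the labels says whether they came from separate cultures or animals. The column of the BirA library is named BirA-input, so it could also hold an input library. Nr1d1 itself read 9.44 and 9.56 in the DKO runs, against 7.91 and 7.48 in the WT runs. This covers the whole gene and does not check whether its floxed part was removed. The macrophage markers were listed by 13 names, some of them old and new names of the same gene. Of these, Cd14, Csf1r, Fcgr1 and Tyrobp have values in the table, with gene means of 9.26 to 12.62 in DKO and 9.11 to 12.52 in WT cells. Only genes assigned a shared site are in the table, so these values are no check of cell identity. None of the 15 listed genes of lymphocytes, of fibroblasts and endothelium, and of granulocytes has a shared site, so other cell types could not be checked.

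RevErbs are receptors of the circadian clock that repress transcription. They bind single copies of the half-site AGGTCA behind an A/T-rich stretch, or pairs of it, and recruit corepressors with the histone deacetylase Hdac3. In macrophages many bound sites are enhancers, which are themselves transcribed into short-lived enhancer RNA. A site is assigned to the nearest expressed gene by the authors' rule, which does not show that the site acts on that gene.

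The assigned genes have varied roles, most of them in the nucleus. Dnttip2 encodes a nucleolar protein of ribosome biogenesis, and Hnrnpl an RNA-binding protein that controls splicing. Senp6 is a protease that trims chains of the small modifier SUMO from proteins. Hmga1 encodes an AT-hook protein that bends chromatin, Kansl2 a subunit of the NSL histone acetyltransferase complex, and Sap25 a subunit of the Sin3 histone deacetylase complex. Zfp236 encodes a protein with many zinc fingers, and Pqlc1, now named Slc66a2, a membrane protein with PQ-loop repeats.

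Gene starts were searched for the half-site because none of the 8 bound sites lies at the start of its gene. RefSeq promoter windows of 300 bases, from 250 bases before to 50 after a start, were matched for 6 of the 8 genes, with 7 windows. AGGTCA on either strand was in 0 of these 7 windows, against 5340 of 32851 windows (16.3%) in the whole table. This says only that these letters are not in these windows. The 250 bases before the start are shown for the 2 genes whose sites differed most in nascent RNA, Hnrnpl in 5'GRO-seq and Dnttip2 in GRO-seq, with Dnttip2 at chr3:122274164-122274413 and Hnrnpl at chr7:28810640-28810889, both on the plus strand of GRCm38.p6, a build other than that of the sites. The third sequence is from Arntl, a clock gene whose site ranked 13 in binding and lies 67 bp from a start. Since none of the 8 sites lies at a start, it is an example only and says nothing about them. Arntl has the half-site, in capitals, in 1 of its 2 windows, at chr7:113207530-113207559 on the plus strand. Whether those letters lie within the mm9 peak was not tested.
Dnttip2: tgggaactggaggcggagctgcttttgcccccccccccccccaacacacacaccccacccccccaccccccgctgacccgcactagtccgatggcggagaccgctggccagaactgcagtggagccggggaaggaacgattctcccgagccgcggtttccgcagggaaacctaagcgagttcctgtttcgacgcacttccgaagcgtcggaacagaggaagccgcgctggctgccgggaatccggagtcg
Hnrnpl: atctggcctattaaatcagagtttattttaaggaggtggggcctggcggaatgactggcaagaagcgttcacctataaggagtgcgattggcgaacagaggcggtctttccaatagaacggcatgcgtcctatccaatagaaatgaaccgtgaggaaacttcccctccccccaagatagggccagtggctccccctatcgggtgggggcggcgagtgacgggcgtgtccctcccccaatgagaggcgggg
Arntl: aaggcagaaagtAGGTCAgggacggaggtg

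None of the 8 sites lies at the start of its assigned gene, and most lie outside that gene. On build mm9 the Dnttip2 site is on chromosome 3 at 122046632 to 122046788, in the authors' intergenic enhancer class, 69378 bp downstream of the gene's start. The Hnrnpl site, on chromosome 7 at 29588341 to 29588497, is in the authors' other enhancer class and 7490 bp upstream of the start, the shortest distance of the 8. The Senp6 site, on chromosome 9 at 79928915 to 79929071, has the same class and lies 14283 bp downstream. That distance is shorter than the gene in the RefSeq table of assembly GRCm38.p6, which places the Senp6 site, alone among the 8, inside its assigned gene.

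The chromatin genes have 2 intergenic enhancer sites and the 1 site of the 8 that the authors class by H3K4me3 above H3K4me1, a mark balance typical of promoters. The intergenic ones are the Hmga1 site, on chromosome 17 at 27684333 to 27684489 and 9108 bp upstream, and the Kansl2 site, on chromosome 15 at 98336770 to 98336926 and 27804 bp downstream. The promoter-like site is that of Sap25, on chromosome 5 at 138093847 to 138094003. It lies 11224 bp downstream of the Sap25 start and beyond the end of this short gene, whose next coding neighbours in GRCm38.p6 are Lrch4 and Irs3. The remaining pair, in the authors' enhancer class that is not marked intergenic, lies on chromosome 18. The Pqlc1 site, at 80509911 to 80510067, is 56944 bp downstream of the start and past the end of the gene, and the Zfp236 site, at 82886236 to 82886392, is 24188 bp upstream. The median distance of the 8 sites to a start was 19236 bp, close to the 22431 bp of all 1544 sites, and 0 of the 8 lay within 5000 bp of one, against 334 of 1544.

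Binding at the 8 sites was strong by the mean of both receptors, as the choice required. In single runs the ranks went down to 110 of 1544, at Kansl2 in RevErbbeta run 2. ChIP-seq values are log2 tags in 157 bp after scaling each run to 10000000 tags, and the binding of a site is the mean of both receptors. By this measure the sites ranked 2 (Sap25, 9.29), 5 (Pqlc1, 8.86), 6 (Dnttip2, 8.84), 7 (Zfp236, 8.81), 8 (Senp6, 8.71), 9 (Hnrnpl and Hmga1, 8.62 each to the second decimal) and 11 (Kansl2, 8.61) of 1544. The median of the 8 was 8.76, against 5.54 for all sites. BirA values were 1.40 to 2.46 at the 8 sites and had a median of 1.10 over all sites. The highest of these, at Dnttip2 (2.46) and Kansl2 (2.26), were also high for that library, at ranks 13 and 32 of 1544, and still 6.38 and 6.35 below the binding of their sites.

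The edge of the group follows from the choice. Ranks 1, 3 and 4 belong to sites of Slc37a2 (9.51), Arhgap25 (9.17) and Mmp9 (9.11), whose genes differed between DKO and WT by 0.44, 0.67 and 1.20 and were therefore left out. The greatest difference inside the group was 0.24, at Pqlc1. Next after Kansl2 in binding came Anxa5 (8.58) and Arntl (8.57). Which sites are the very strongest depended on the runs: with only the runs of over 1000000 tags, 5 of the 8 stayed among the 11 strongest, and all 8 stayed among the 25 strongest.

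**Figure D1:**
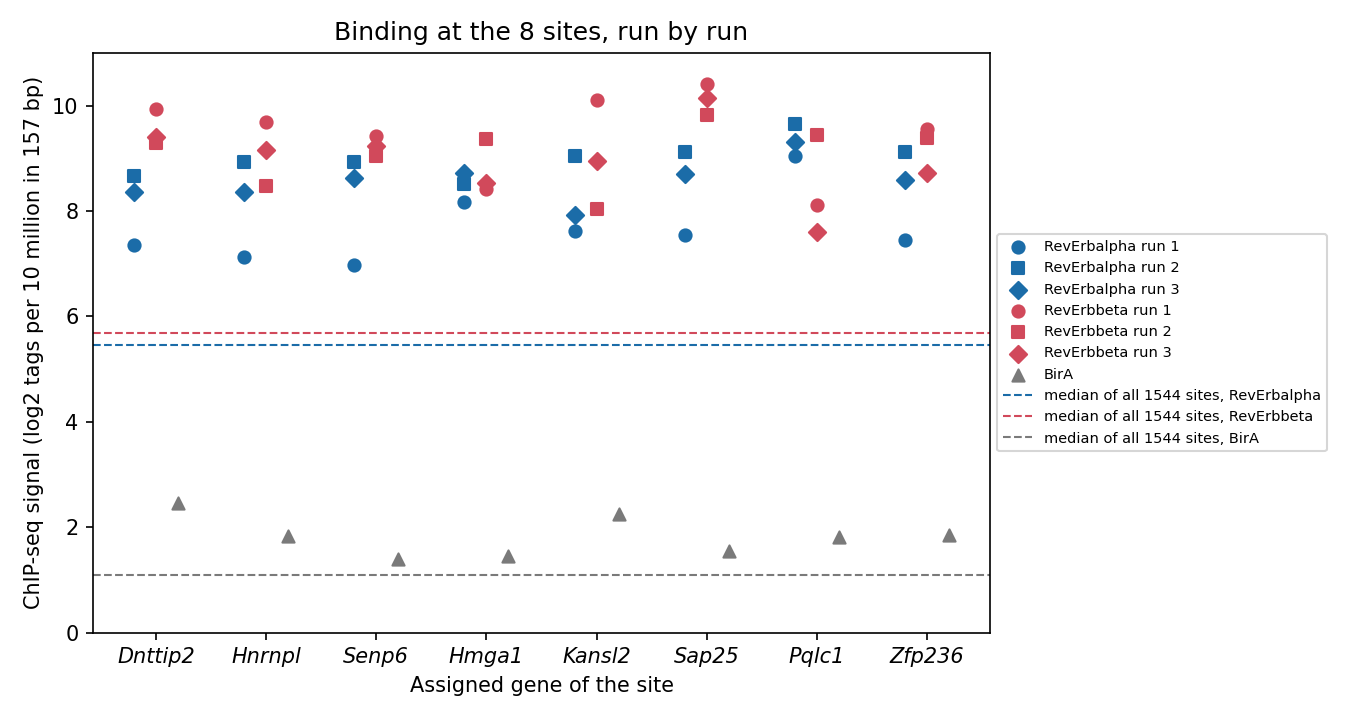
ChIP-seq signal (log2 tags per 10000000 in 157 bp) at the 8 sites, with a point for each of 3 RevErbalpha runs, 3 RevErbbeta runs and the BirA library, and dashed lines at the medians of all 1544 sites. All RevErb points lie between 6.98 and 10.42, far above the BirA points at 1.40 to 2.46, and Pqlc1 is the one site where the RevErbalpha mean exceeds the RevErbbeta mean.

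The choice used the mean of the 2 receptors and not their difference. Both come from the same values, so the difference is not independent of the choice. RevErbbeta was higher at 7 of the 8 sites, and at all sites RevErbalpha was above RevErbbeta at 518 of 1544 (33.5%). At Sap25 the RevErbalpha runs read 7.54, 9.13 and 8.70, against 10.42, 9.83 and 10.14 in the RevErbbeta runs, a difference of -1.67 for RevErbalpha minus RevErbbeta. The runs did not overlap, and RevErbbeta runs 2 and 3 had their highest value of all 1544 sites here. At Dnttip2 RevErbalpha read 7.36, 8.67 and 8.37, against 9.94, 9.29 and 9.41 for RevErbbeta, a difference of -1.41. At Senp6 RevErbalpha read 6.98, 8.94 and 8.63, against 9.43, 9.04 and 9.23 for RevErbbeta, a difference of -1.05. These 3 sites had all RevErbalpha runs below all RevErbbeta runs, as did 114 of 1544 sites (7.38%). Higher RevErbbeta was not particular to the 8. The median difference was -0.90 for the 8 and -0.94 for the 3 other sites among the 11 strongest. It was -0.59 for the 92 other sites among the 100 strongest and -0.285 for all sites.

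Pqlc1 went the other way. Its RevErbalpha runs read 9.04, 9.65 and 9.31, against 8.11, 9.45 and 7.61 in the RevErbbeta runs, a difference of 0.94 at rank 84 of 1544. RevErbbeta run 2 lay among the RevErbalpha runs, so the runs overlapped. At Hnrnpl the difference was -0.97, at Kansl2 -0.83, at Zfp236 -0.83 and at Hmga1 -0.30, all with overlapping runs. With the deeper runs alone (RevErbalpha run 1 against RevErbbeta runs 1 and 2), the difference was 0.26 at Pqlc1 and between -2.59 and -0.72 at the other 7 sites. In these runs the median difference was -1.98 for the 8 sites and -0.89 for all 1544, so RevErbalpha read lower in them at sites in general. RevErbalpha runs 2 and 3 had 682651 and 598490 tags and RevErbbeta run 3 had 780281, against 3751878 to 5276592 in the rest, and the 8 sites held about 14 to 87 tags in the shallow runs.

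Capped nascent RNA at the sites was lower in RAW cells with tagged RevErbalpha than in control cells by 1 or more on the log2 scale at 5 of the 8 sites. A value below that of control cells, of any size, was found at 6 of the 8 and at 966 of all 1544 sites (62.6%). Over all sites 309 of 1544 (20.0%) were lower by 1 or more, and 76 (4.92%) were higher by 1 or more, as was 1 of the 8. The median difference of the 8 was -1.93, against -0.23 for all sites. 5'GRO-seq values are log2 tags in 500 bp after scaling to 10000000 tags. The tagged library had 7238710 tags and the control library 18708148, so low values are less precise in the tagged library. Tag numbers were read back from the log2 values and are approximate; intervals are exact conditional binomial (95%) and cover counting error in these 2 libraries only.

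As deposited, the sites of Hnrnpl, Senp6 and Dnttip2 had the 3 lowest differences of the 8. That of Senp6 rests on about 0 tags in the tagged library, and with 10 in place of 1 added before the logarithm it was -1.25, the smallest loss of the 5 lowered sites. At the Hnrnpl site the log2 value was 0.42 with tagged RevErbalpha, against 5.53 in control cells, or about 0 and 84 tags. The difference of -5.11 was the second lowest of 1544 sites. Set against a floor of 3 tags in the tagged library it amounts to 10.8-fold lower, and the exact interval allows a loss as small as 8.62-fold. At the Dnttip2 site the value was 3.80 with tagged RevErbalpha, against 6.64 in control cells, from about 9 and 184 tags. The difference was -2.84 and the ratio 0.126 (0.0569 to 0.245). At the Senp6 site, inside the gene of the SUMO protease, the value was 0.44 with tagged RevErbalpha, against 3.96 in control cells. About 0 and 27 tags lay behind these values, which makes the tagged library 3.48-fold lower against the floor of 3 tags. The exact interval allows a loss as small as 2.64-fold.

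The sites of the chromatin genes differed from each other. The Hmga1 site had the strongest capped RNA of the 8, at 6.64 with tagged RevErbalpha against 8.52 in control cells. Its difference of -1.88 rests on about 71 and 684 tags, the most of any of the 8 sites, with a ratio of 0.268 (0.207 to 0.343). The Kansl2 site had almost no capped RNA in either library, at 1.25 with tagged RevErbalpha against 1.74 in control cells. With at most about 1 tag against 4, a difference was not detectable at this depth. The Sap25 site read 3.11 with tagged RevErbalpha, against 2.43 in control cells, a difference of 0.68 from about 5 and 8 tags. The interval of its ratio, 0.416 to 5.60, includes 1, so neither direction could be told.

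The last pair lay in opposite directions. The Pqlc1 site read 3.34 with tagged RevErbalpha, against 5.32 in control cells, a difference of -1.98 from about 6 and 72 tags with a ratio of 0.215 (0.0765 to 0.492). The Zfp236 site read 2.71 with tagged RevErbalpha, against 0.01 in control cells, a difference of 2.70 at rank 4 from the top of 1544. Behind it lie about 4 and 0 tags, for which the exact interval allows a ratio as low as 1.71, so the large log2 difference stands on very few tags. With 10 in place of 1 added before the logarithm it was 0.64, while the 5 lowered sites had -1.25 to -2.42.

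**Figure D2:**
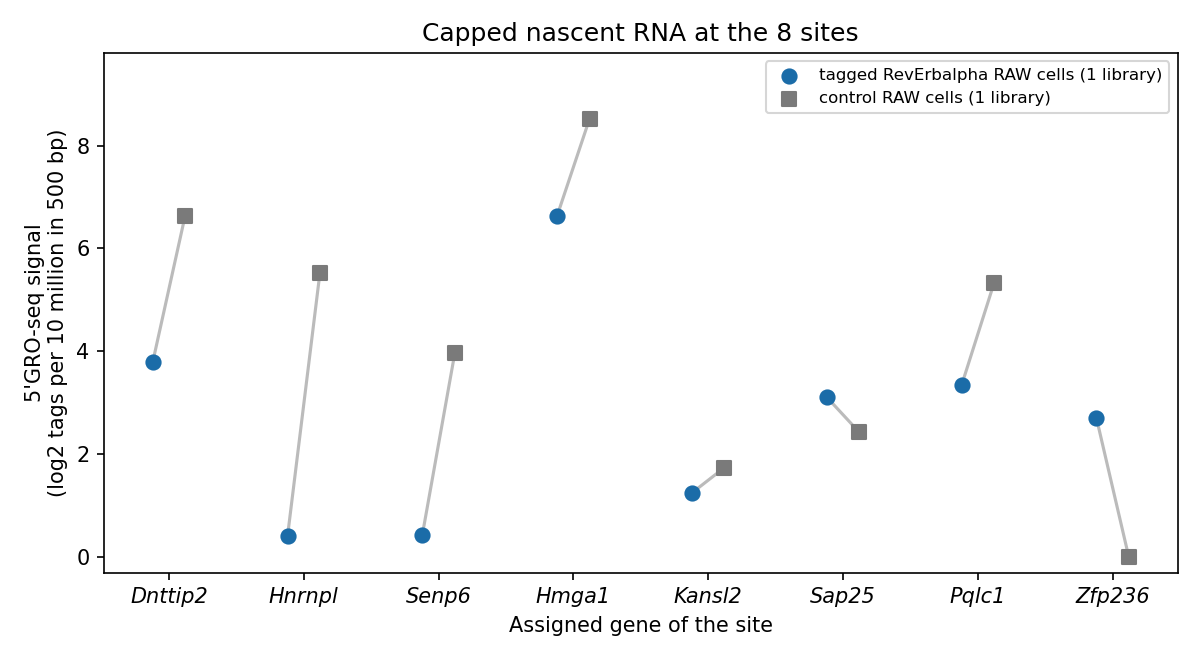
5'GRO-seq signal (log2 tags per 10000000 in 500 bp) at the 8 sites, with tagged RevErbalpha RAW cells on the left and control RAW cells on the right of each pair, 1 library each. The difference is -1.88 to -5.11 at Dnttip2, Hnrnpl, Senp6, Hmga1 and Pqlc1, -0.49 at Kansl2, 0.68 at Sap25 and 2.70 at Zfp236, where the control value is 0.01.

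GRO-seq at the same sites in bone marrow derived macrophages showed large differences between DKO and WT at 3 of the 8. The authors give 1 log2 value per genotype, with no tag number, so counting error is unknown and no run can be left out. Over all 1544 sites 52 (3.37%) were higher in DKO by 1 or more and 34 (2.20%) were lower by 1 or more. Of the 8, the sites of Dnttip2 and Kansl2 were higher by 1 or more and that of Hmga1 was lower by 1 or more. The median of the 8 was -0.04, against 0.03 for all sites.

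The Dnttip2 site read 4.61 in DKO cells, against 2.58 in WT cells. Its difference of 2.03 was the highest of all 1544 sites as deposited, and the second highest, at 1.16, with 10 added before the logarithm. The Kansl2 site read 3.30 in DKO cells, against 1.62 in WT cells, a difference of 1.68 at rank 6, which was 0.64 with 10 added. The Hmga1 site read 2.58 in DKO cells, against 3.61 in WT cells. This difference of -1.03 was the 31st lowest of 1544, and with 10 added it was -0.50. These 3 are the intergenic enhancer sites of the group.

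The other 5 sites differed by less than 0.5 between genotypes. The Hnrnpl site read 4.15 in DKO cells, against 3.74 in WT cells, a difference of 0.42. The Senp6 site read 3.99 in DKO cells, against 3.92 in WT cells, and since it lies inside the gene, reads of the gene and of the site cannot be told apart. The sites of Hnrnpl, Pqlc1 and Zfp236 lie outside their assigned genes but are not classed as intergenic. Whether they lie inside another gene was not tested. The Sap25 site read 2.98 in DKO cells, against 3.27 in WT cells, and the Pqlc1 site 2.12 in DKO cells, against 2.26 in WT cells. The Zfp236 site was close to 0 in both, at 0.05 in DKO cells, against 0.20 in WT cells, so that neither assay found more than a trace of nascent RNA at this strongly bound site except for the about 4 capped tags with tagged RevErbalpha.

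Differences in the opposite direction, lower with tagged RevErbalpha and higher in DKO, were large in both assays at the Dnttip2 site alone among the 8. Over all sites 18 of 1544 (1.17%) were lower by 1 or more in 5'GRO-seq and higher by 1 or more in GRO-seq. The same held for 6 of the 92 other sites among the 100 strongest, a larger share than over all sites. At Hnrnpl the values were -5.11 with tagged RevErbalpha and 0.42 in DKO, and at Senp6 -3.52 and 0.07. At Hmga1 the signal was lower in both, with -1.88 and -1.03. The 2 assays used different cells, and the libraries of one are not shared with the other.

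At the level of the assigned genes the differences between DKO and WT were small, as the choice required. All 8 were within 0.25 on the log2 scale, and so were 1014 of all 1220 gene IDs (83.1%), so a small difference is what most genes of the table show. No member was counted as higher or lower by 0.5 or more with runs apart, against 24 (1.97%) higher and 9 (0.738%) lower of 1220. The median of the 8 was 0.08, against 0.04 for all genes. Gene values are log2 GRO-seq signal over the gene and were not compared between genes, since no gene lengths were applied.

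The gene whose site had the highest GRO-seq difference in DKO did not differ in the same direction. Dnttip2 read 8.87 and 8.87 in the DKO runs, against 8.90 and 9.04 in the WT runs, a difference of -0.10. Both DKO runs lay below both WT runs, by 0.03 at the nearest, as in 122 of 1220 genes (10.0%). Hnrnpl read 11.14 and 11.32 in the DKO runs, against 11.18 and 11.07 in the WT runs, a difference of 0.11 (0.105 before rounding) with overlapping runs. Senp6 read 11.19 and 10.95 in the DKO runs, against 11.06 and 11.17 in the WT runs, and the WT runs lay between the DKO runs.

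Among the chromatin genes Kansl2 read 9.97 and 9.94 in the DKO runs, against 9.78 and 9.76 in the WT runs. The runs of each genotype differed by 0.03 and 0.02, and the difference of 0.19 (0.185 before rounding) stayed between 0.17 and 0.20 with any 1 run left out. With the runs set to a common median over all genes, the difference was 0.13. Both DKO runs lay above both WT runs, as in 224 of 1220 genes (18.4%). Kansl2 and its site were thus both higher in DKO, by very different amounts. The gene overlaps Mir1291, Snora2b and Snora34 in GRCm38.p6, whose reads cannot be told apart from its own here. Hmga1 read 8.68 and 8.98 in the DKO runs, against 8.68 and 8.80 in the WT runs, a difference of 0.09 with overlapping runs, while its site was lower in DKO. Hmga1 has a copy, Hmga1b, in the RefSeq table, and how reads of copies were handled is not given in the sources used here.

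Sap25 was the least settled of the 8. It read 7.79 and 8.48 in the DKO runs, against 8.28 and 7.86 in the WT runs, so that the runs of a genotype lay 0.69 and 0.42 apart. Its difference of 0.07 (0.065 before rounding) ranged between -0.28 and 0.41 with 1 run left out, and the gene overlaps Gm20605. Pqlc1 read 9.05 and 9.18 in the DKO runs, against 8.97 and 8.78 in the WT runs. Both DKO runs lay above both WT runs, and the difference of 0.24 ranged between 0.15 and 0.34 with 1 run left out. With the runs set to a common median, the Pqlc1 difference was 0.18. Zfp236 read 11.09 and 11.10 in the DKO runs, against 11.09 and 11.04 in the WT runs, a difference of 0.03.

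**Figure D3:**
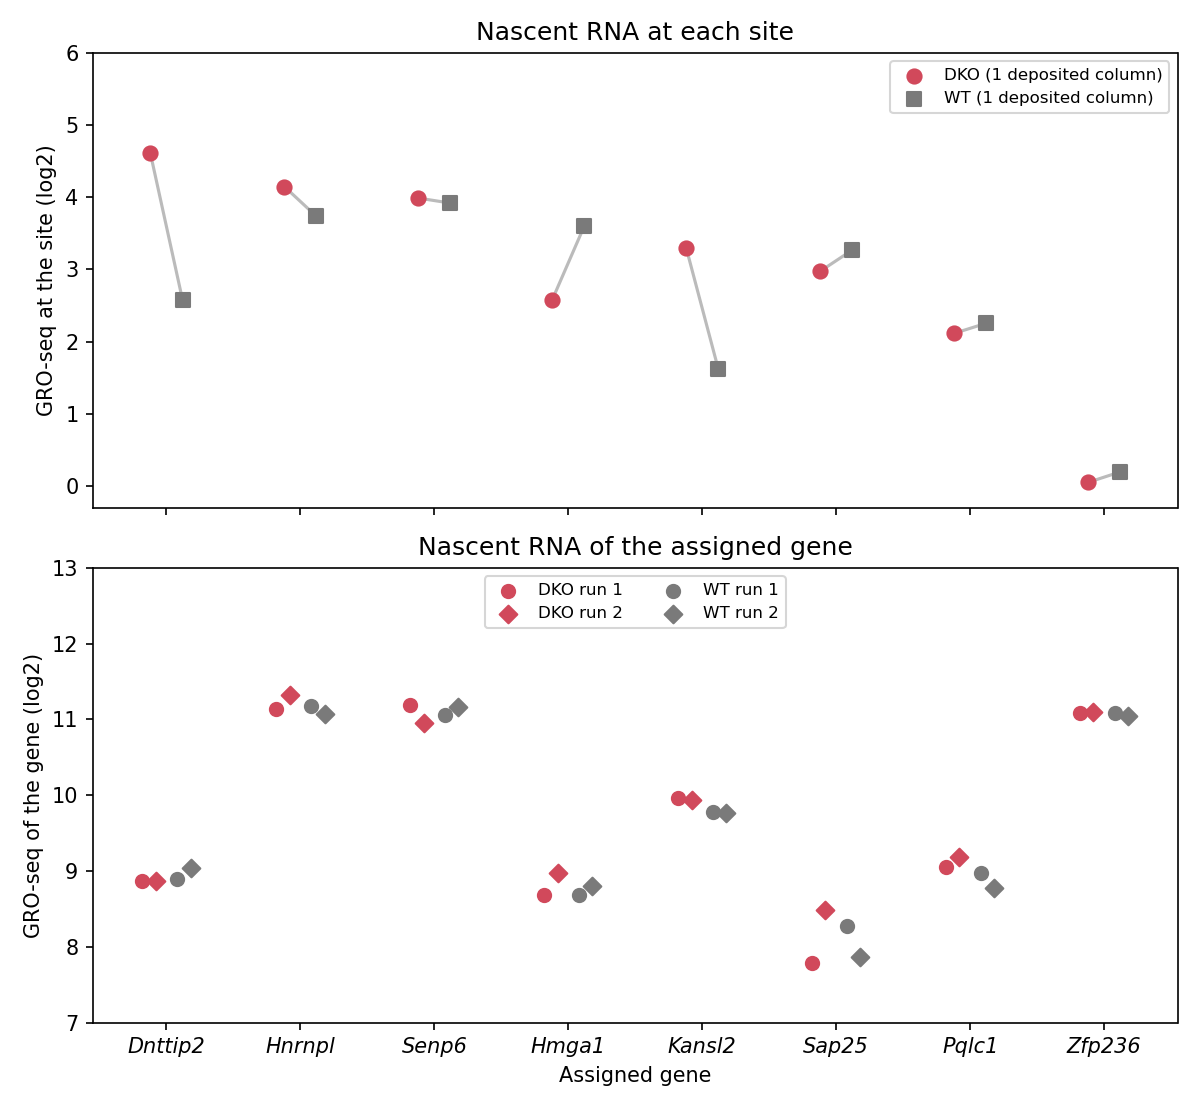
GRO-seq signal (log2) at the 8 sites (upper panel, 1 deposited value per genotype) and of their assigned genes (lower panel, 2 runs per genotype), with DKO left of WT for each gene. The sites of Dnttip2 and Kansl2 are higher in DKO by 2.03 and 1.68 and that of Hmga1 differs by -1.03, while all 8 gene means differ by 0.24 or less.

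**Figure D4:**
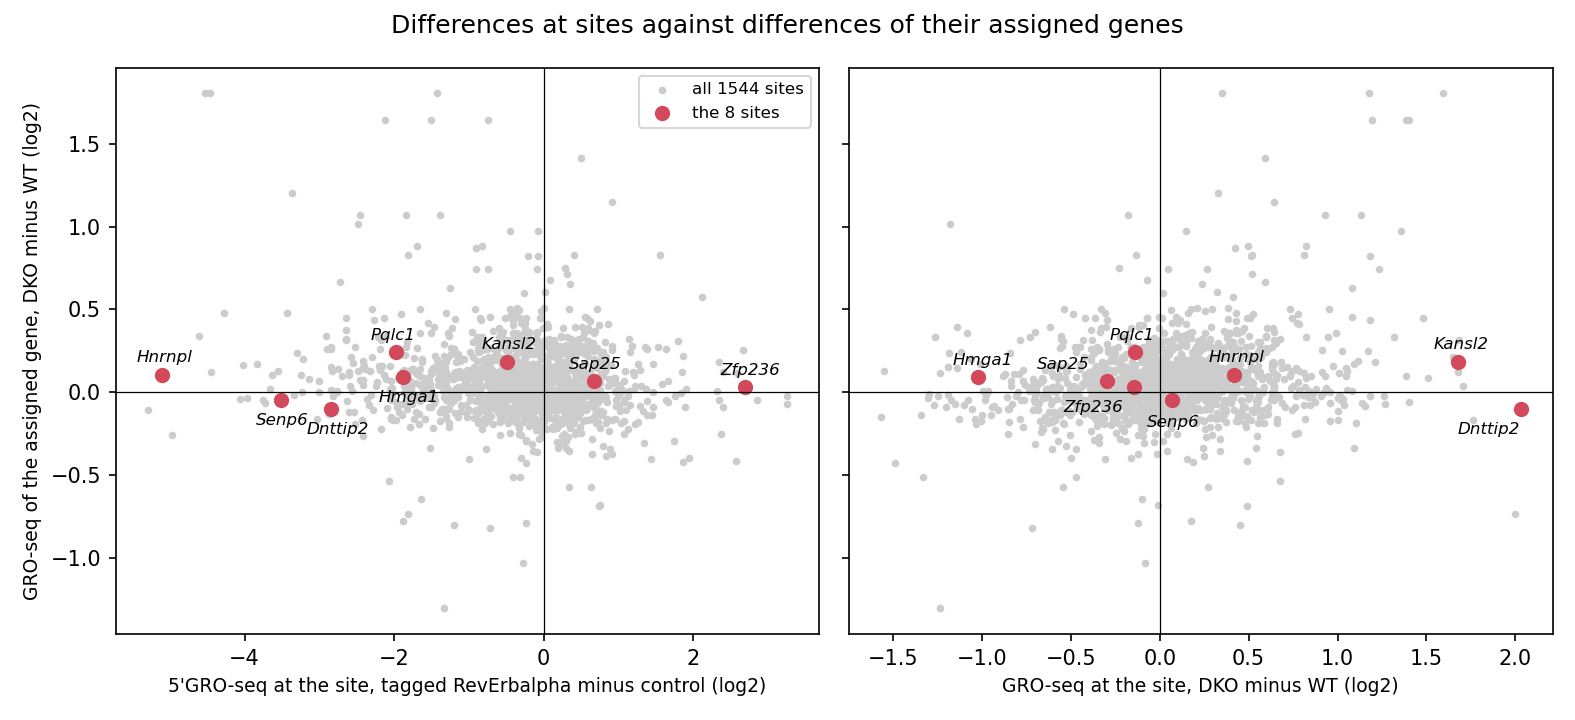
Difference of the assigned gene between DKO and WT (vertical axis, log2) against the 5'GRO-seq difference at the site (left panel, tagged RevErbalpha minus control, log2) and the GRO-seq difference at the site (right panel, DKO minus WT, log2), for all 1544 sites in grey and the 8 sites in red. The 8 sites spread between -5.11 and 2.70 on the left and between -1.03 and 2.03 on the right, and stay between -0.10 and 0.24 on the vertical axis by which they were chosen.

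The genes on the other side of the selection differed in the gene and in the 5'GRO-seq signal. At the Slc37a2, Arhgap25 and Mmp9 sites 5'GRO-seq differed by -1.18, -2.72 and -3.37, and the 5 lowered members had -5.11 to -1.88. GRO-seq at these sites was higher in DKO by 0.39, 0.59 and 0.33. Of the 8 sites, those of Dnttip2 and Kansl2 lay above all 3 of these, that of Hnrnpl (0.42) among them, and the other 5 below all 3. Across the 92 other sites among the 100 strongest, 45 (48.9%) were lower by 1 or more in 5'GRO-seq and 5 were higher by 1 or more, against 5 and 1 of the 8. In GRO-seq 8 of the 92 were higher in DKO by 1 or more and 0 were lower by 1 or more, against 2 and 1 of the 8. Of the 90 genes assigned to these 92 sites 62 (68.9%) differed by 0.25 or less.

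Sites elsewhere in the same neighbourhoods were weaker, which follows from the choice of the most strongly bound sites. Within 300000 bp, 4 of the 8 sites had another shared site, and the sites of Dnttip2, Senp6, Kansl2 and Zfp236 had none. The site of Rinl, 22365 bp from the Hnrnpl site, had a binding of 6.24 and read 2.36 in 5'GRO-seq with tagged RevErbalpha, against 4.66 in control cells. The site of AI413582, 14871 bp from the Hmga1 site, had a binding of 5.42 and read 5.09 with tagged RevErbalpha, against 6.57 in control cells. In GRO-seq it differed by -0.11 (-0.105 before rounding), unlike the Hmga1 site with -1.03. The site of Agfg2, 19367 bp from the Sap25 site, had a binding of 5.16 and read 7.81 with tagged RevErbalpha, against 7.90 in control cells. Farther off, 5'GRO-seq differed by 0.98 at the site of D17Wsu92e (217778 bp from the Hmga1 site). It differed by -0.49 at that of Gnb2 (119441 bp from the Sap25 site) and by -1.87 at that of Ctdp1 (237356 bp from the Pqlc1 site).

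Sites most like each member were found by the Euclidean distance over 7 library values on the log2 scale (both receptor means, BirA, both 5'GRO-seq and both GRO-seq values). The site nearest to the Dnttip2 site was one of Cx3cr1, at a distance of 2.15, with -1.51 in 5'GRO-seq and 1.20 in GRO-seq. The genes differed: Cx3cr1, the fractalkine receptor gene, was higher in DKO by 1.65 (1.645 before rounding), against -0.10 for Dnttip2. The Pqlc1 site was nearest to that of Mmp9 (1.37), whose gene differed by 1.20. The small differences of Dnttip2 and Pqlc1 were fixed by the choice, so these 2 contrasts are a description only. The Hnrnpl and Senp6 sites were both nearest to a site of Col15a1 (1.93 and 1.39) and the Hmga1 site to one of Zswim6 (1.35). Kansl2 (Lrig2, 2.52), Sap25 (Cdk14, 2.73) and Zfp236 (Cry1, 2.71) had the longest distances of the 8. The genes of these other alike sites differed little between DKO and WT. The differences were 0.26 for Col15a1, 0.065 for Zswim6, 0.055 for Lrig2, -0.11 for Cdk14 and 0.12 for Cry1.

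Other genes of the same complexes and pathways were taken from lists. Of 139 names in 8 lists that follow the members' roles, 18 genes had a shared site, and 17 of these were within 0.25, as were 83.1% of all gene IDs. The exception was Slc15a3, a lysosomal peptide transporter listed with the PQ-loop genes, which read 10.35 and 10.31 in the DKO runs, against 9.61 and 9.29 in the WT runs. Of the hnRNP list, 2 of 26 names were in the table. The site of Hnrnpa0, a relative of Hnrnpl, ranked 45 in binding and read 1.91 in 5'GRO-seq with tagged RevErbalpha, against 4.54 in control cells, while the gene differed by -0.06 (-0.055 before rounding) between genotypes. The SUMO list had 3 of 20 names, with Zmiz1, a SUMO ligase of the PIAS family, differing most at 0.12. The Sin3 list had Suds3 (0.13) of 18 names, the NSL and MSL list Msl1 (-0.02) of 13, and the HMG list 2 of 13, with Hmga2 differing most at -0.05. The Hmga2 WT runs, at 10.38 and 11.56, lay on both sides of its DKO runs, at 11.07 and 10.77, so its difference is not settled. The list of ribosome biogenesis had 4 of 32 names, with Utp3 differing most at -0.15 (-0.145 before rounding). Of the 25 sites of these 18 genes 5 were lower by 1 or more in 5'GRO-seq, beside 20.0% of all sites, and 1 was higher, beside 4.92%.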

How the data were processed

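The authors deposited 1 summary table of 1544 sites common to RevErbalpha and RevErbbeta, used here, and 3 position lists, not used here. Values are log2, per the file headers: ChIP-seq tags in 157 bp and 5'GRO-seq tags in 500 bp, scaled to 10000000 tags, and GRO-seq values whose scaling is not given in the sources used here. The submitters' processing notes list build mm9, HOMER and Bowtie 0.12.7; peak calling settings are not given in the sources used here. Treated libraries appear in the header's command, and whether a run was treated is not stated. Values exist for 7 of 15 samples; histone mark and PU.1 libraries were not analysed here.

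Run means and differences were recomputed (Python 3.11.15, pandas 2.3.3, scipy 1.17.1) and lay within 0.01 of the authors' columns. Each group is 1 sample, so no test was made. A site was counted at a difference of 1, a gene at 0.5 with the runs of the genotypes apart; the gene rule was tested on simulated data. Low 5'GRO-seq values do not fall on steps of whole tags, their remainders being spread over a tag, so tag numbers are the whole part of the unscaled value. The members and gene lists, and the rule for named genes (all members, the strongest sites beside them, the most alike site of each, and per list the genes counted or the 1 with the largest difference), were chosen with earlier results of these data known. Gene names and order came from RefSeq GRCm38.p6, where all 8 IDs matched. The gene named for 1 of the lists is not reported here.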

Additional observations from a re-analysis of the deposited data

How the results depend on the processing

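No paired analysis was possible because each group has 1 sample. Median binding of the 8 sites, 8.76, lay between 8.62 and 8.97 with 1 run left out and was 8.48 with the runs of over 1000000 tags. With 10 added before the logarithm, the median 5'GRO-seq difference of -1.93 was -1.30, 5 sites were still lower by 1 or more and 0 were higher. Counting from 0.5, 5 sites were lower and 2 higher, against 36.3% and 14.4% of all sites. Above the lower quartile of level, 3 sites remained, those of Dnttip2, Hmga1 and Pqlc1, with a median of -1.98, 3 lower and 0 higher by 1 or more. That filter uses the mean of both libraries and kept the Pqlc1 site through its control value, so it is no support for these losses. Over all sites the shares lower by 1 or more were 11.7% with 10 added and 15.2% above the quartile. The median GRO-seq difference of -0.04 was 0.0143 with 10 added and 0.07 above the quartile, where only the Zfp236 site was dropped, so its sign is not settled. With 10 added, 1 member, Dnttip2, was higher by 1 or more and 0 were lower, against 3 and 0 of all sites. The median gene difference of 0.08 lay between 0.02 and 0.18 with 1 run left out and was 0.02 with the runs set to a common median. No member gene was counted under these settings, nor from 0.25, which the choice of genes with small differences fixes. Using the strongest site of each gene changed nothing, since each gene has 1 site. Apart from the fewer sites above the quartile, the cause of these shifts was not tested. Depth limits the sites of Kansl2, Sap25 and Zfp236, with at most about 8 capped tags in a library.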
